A study of Drosophila melanogaster with 18 samples.

Results

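The wildtype first-instar larval transcriptome of Drosophila melanogaster was read from the 6 arrays whose titles name wildtype (replicates A to F), out of 18 arrays in the series. Each array held RNA from 200 pooled whole larvae, raised at 25 °C and collected about 48 hours after the eggs were laid, and the submitters call the 6 wildtype samples biological replicates. The labels say neither what the letters A to F mark, nor which strain wildtype was, nor the sex of the larvae. The other 12 arrays, 3 per group, came from larvae of the same stage that were trans-heterozygous for HP1a04/HP1a05, double mutant for HP1a04 PofD119/HP1a05 PofD119, homozygous for Setdb110.1, or trans-heterozygous for Su(var)3-9evo over Su(var)3-906. HP1a and the histone methyltransferases of the last 2 groups are heterochromatin proteins, and POF binds the fourth chromosome. The labels do not say whether any mutant protein was absent or what the mothers carried.

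The first larval instar is a feeding stage that ends with a moult. Its gut makes secreted proteases, its fat body stores and exports lipid, and its muscles and nervous system already work, while most larval cells grow without dividing. Before each moult the epidermis lays down new cuticle, a mesh of chitin and proteins such as those of the Cpr, Lcp and Tweedle genes. Genes for eggshell, yolk, sperm and seminal fluid serve adults, and salivary glue and larval serum proteins belong to the last larval instar.

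Values are log2 signals of Affymetrix probe sets made by the authors with RMA, which corrects background, normalizes between arrays and summarises the probes of a set. The probe sets named 11893 genes. The order of signals among genes is not an order of RNA amounts, because probe sets differ in brightness for the same amount of RNA: in the 1082 genes with several probe sets, the gap between the brightest and the dimmest had a median of 1.63. The table holds no detection calls, so a low signal is not shown to be an absent transcript. Because whole larvae were used, a difference in the share of a tissue cannot be told apart from a difference in RNA per cell.

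The 6 wildtype arrays correlated with each other at 0.986 to 0.996 across 7758 genes, which are not independent replicates. As a check of the labels, the gene for HP1a had signals of 10.13 to 10.27 on the wildtype arrays, against means of 9.48 and 9.53 in the HP1a mutants and the double mutants. Pof had 7.41 to 7.64 on the wildtype arrays, and the arrays labelled as double mutants for Pof averaged 8.32, which is higher. The sources used here do not say whether its probe set lies in the altered part of the gene, so this signal does not check that label. The genes for the enzymes of the last 2 groups are not analysed here.

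Genes of protein synthesis, digestion, energy supply and muscle were among those with high signal on every wildtype array. A signal of 12 or more on all 6 arrays was found for 280 of 11893 genes. Of the measured members of each list, these held 29 of 35 genes for cytoplasmic ribosomal proteins, 14 of 26 digestive serine proteases, 27 of 71 respiratory chain genes, 11 of 40 genes of the Malpighian tubule and the vacuolar proton pump, 5 of 10 glycolytic genes and 4 of 19 muscle genes. Some members of these lists were dim. Under 6 on all 6 arrays stayed 16 of the 71 respiratory chain genes and 11 of the 40 tubule and proton pump genes. The share over all genes was 32.6%. The annotation used named only 35 of the 87 ribosomal protein genes in the list. Most of the class, 160 of the 280 genes, belonged to none of the lists.

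RpL41, which encodes a very short ribosomal protein, had the highest mean signal, 14.30 ± 0.0345 (SD, n = 6). RpLP1 had 14.19, RpL15 had 14.14 and RpS29 had 14.13, and RpL23, RpS27A, RpS28b and RpS18 were also among the 12 highest genes. RpLP1, a protein of the ribosomal stalk, lay between 14.18 and 14.20 on the 6 arrays, with an SD of 0.00811. These genes lay at the top of the scale, where no gene averaged above 14.30, and RpLP1 had 14.10 to 14.17 on the mutant arrays. Whether their signals were compressed there was not tested, so a small SD does not show a steady RNA level. The 3 ribosomal protein genes that stayed under 6 on all 6 arrays were RpL10Aa at 4.41, RpS10a at 5.66 and RpS28a at 5.80. The paralogues RpL10Ab and RpS28b had 13.92 and 14.00. Their low values were singled out after they were seen.

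Jonah and trypsin-like proteases of the larval gut were also among the brightest genes. Jon65Aiv had the second highest signal of all genes, with 14.19, 14.25, 14.22, 14.25, 14.25 and 14.22 on arrays A to F. Jon25Biii averaged 14.10 and Jon65Aiii 13.99, and outside the list yip7, a related protease gene, averaged 13.97. Jon25Bii at 13.94, Jon66Ci at 13.85, epsilonTry at 13.77, Jon25Bi at 13.74 and Jon99Fi at 13.72 were also among the 15 highest genes that encode no ribosomal protein. These genes are close relatives, so the split of signal between them is uncertain. The list was not uniform: 3 of its 26 measured members stayed under 6 on all 6 arrays.

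Other bright genes belonged to further lists or to none. Nplp2, which encodes a secreted precursor listed with the neuropeptides, averaged 14.07 ± 0.0325, and its mutant arrays lay at 13.91 to 14.18. Mlc1, a myosin light chain of muscle, averaged 13.81, and Mp20, a calponin-like muscle protein, averaged 13.79. The fat body genes FASN1 (fatty acid synthase) and apolpp (the apolipophorin precursor) averaged 13.70 and 13.51. ND-MLRQ, a subunit of respiratory complex I, had 13.69, Vha16-1 of the vacuolar proton pump had 13.69, eEF5 of translation had 13.68 and Eno, the glycolytic enolase, had 13.29. Ag5r2 averaged 13.71, CG7299 13.88 and CG14302 13.73. These 3 belong to no list.

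Cuticle and secretion genes also reached the top class, though only some of them. Lcp65Ag3 averaged 13.30, Cpr47Eb 12.96 and Cpr49Ag 12.35, the only 3 of 105 measured cuticle genes at 12 or more on every wildtype array. Osi6 of the Osiris family, whose members act in the cuticle-secreting epithelium, averaged 13.32. Among genes for odorant-binding proteins, Obp56a averaged 13.61 and Obp44a 12.91, while 26 of the 46 measured members stayed under 6 on all arrays. LysS, a lysozyme gene of the gut, averaged 13.04.

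**Figure D1:**
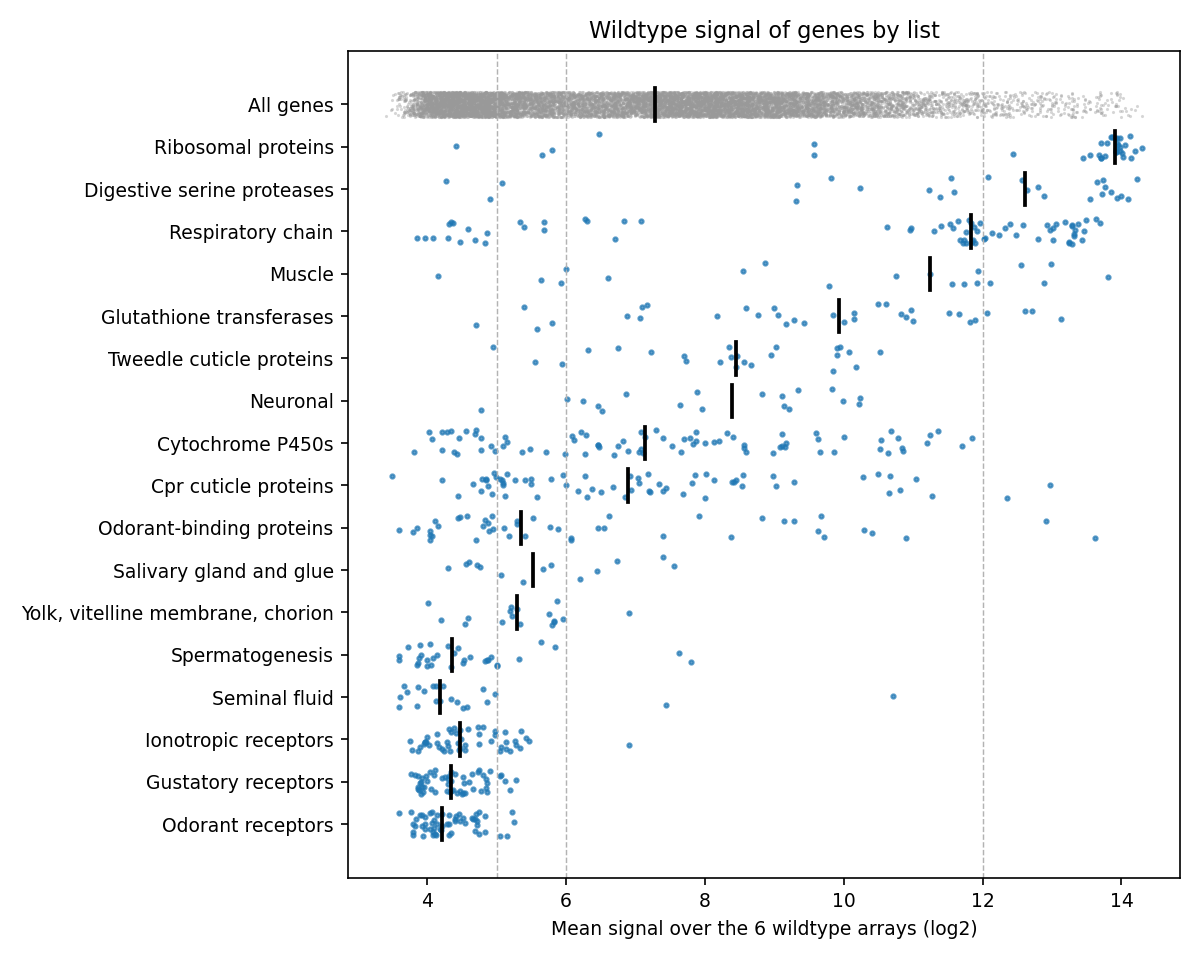
Mean log2 signal over the 6 wildtype arrays for all 11893 genes and for the measured members of 17 gene lists. Each point is a gene, black bars are medians, and dashed lines mark 5, 6 and 12. Ribosomal proteins and digestive proteases lie at the right, and the receptor families and the adult reproductive lists at the left.

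Markers of most larval tissues had intermediate signal. The median over all genes was 7.28. The neuronal list had a median of 8.39, led by Gad1 (GABA synthesis) at 10.24. Of its 18 measured members 1 stayed under 6 on all 6 arrays, against 32.6% of all genes. The haemocyte list had a median of 8.69, glia 8.92, trachea 7.88 with pio at 9.67, and the cell cycle list 7.49. Cytochrome P450 genes spread from 3.80 to 11.84, with Cyp6d5 the highest. Among antimicrobial peptides, 13 of 20 stayed under 6 on all arrays, and BomS4 averaged 9.23, DptB 8.53 and Mtk 8.19. Of 13 germline genes 10 stayed under 6, while tud, which acts in germ plasm, had 10.20.

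Low signal was a matter of degree. Under 4 on all 6 wildtype arrays lay 177 of 11893 genes, under 5 lay 2219 (18.7%), and under 6 lay 3877 (32.6%). As a guide to the signal of genes not thought to be used by larvae, the 38 yolk, eggshell and seminal fluid genes had a median of 4.59 and a 95th percentile of 6.98, and 5166 genes stayed below that percentile.

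The chemoreceptor families lay almost wholly in this range. All 57 measured odorant receptor genes stayed under 6 on all 6 arrays, as did all 56 gustatory receptor genes and 49 of 50 ionotropic receptor genes, against 32.6% of all genes. Under 5 the counts were 52, 47 and 34. These receptors are known from small sets of sensory neurons. The exception was Ir76a, with 7.26, 6.98, 6.62, 6.89, 6.96 and 6.74 on arrays A to F, against 5.05 to 5.78 on the 12 mutant arrays. The groups did not overlap. No test is given for it, since all its mutant arrays lay under the filter of 6 and it was picked for its wildtype signal.

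Genes of the adult reproductive system were likewise dim. Under 6 on all wildtype arrays were 29 of 32 spermatogenesis genes, 19 of 21 seminal fluid genes and 12 of 17 yolk and eggshell genes, and all 4 measured genes of the Y chromosome. EbpIII, named for the ejaculatory bulb, stood out at 10.71 ± 0.128, with 10.71 to 12.52 on the mutant arrays. Acp95EF averaged 7.43, and the spermatogenesis genes mia and Mst85C averaged 7.80 and 7.62. Vm26Aa, a vitelline membrane gene, had 6.67 to 7.07 on the wildtype arrays, within the 6.64 to 7.33 of the mutant arrays.

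Genes of the last larval instar were low too. All 3 measured larval serum and fat body protein genes stayed under 6: Lsp2 averaged 5.68, Fbp1 5.38 and Fbp2 5.09. One mutant array, in the Su(var)3-9 group, had 11.57 for Lsp2, and the next highest of the 12 had 5.96. For Fbp2 the highest mutant array had 11.15 and the next 5.09. Of the 14 salivary gland and glue genes, 9 stayed under 6, and the brightest were fkh, a transcription factor gene of the gland, at 7.55, ng1 at 7.39 and ng3 at 6.73. All 5 Turandot stress genes stayed under 6.

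Of the 177 genes under 4 on every wildtype array, only cn was tested against the mutant groups, because its mutant arrays alone brought it past the filter on low signal. The gene cn encodes an enzyme of eye pigment synthesis. It had 3.62 to 3.71 on the 6 wildtype arrays, against group means of 7.30 in HP1a mutants, 7.01 in the double mutants, 4.14 in the Setdb1 group and 3.86 in the Su(var)3-9 group. Its signal was thus near the wildtype value in 2 groups and far above it in the other 2. No test is given for it, since a gene that entered through the groups where it is high had to differ.

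Wildtype larvae differed from the mutant groups over a large part of the genome, and the gene lists described below differed in direction. Tested against the mean of the 4 mutant groups with limma, 3603 of 8194 genes (44%) passed an adjusted p of 0.05 with a higher signal in wildtype, and 1988 (24.3%) with a lower one. This split depends on the scale: with each array centred on its median, which lowered the median difference over all genes from 0.10 to 0.000186, 2917 were higher and 2729 lower. Some of the 8194 genes passed the filter on low signal only with the help of mutant arrays, which favours a lower wildtype value. The 24.3% includes such genes. Among the 7758 genes that passed the filter on wildtype arrays alone, 3599 were higher in wildtype and 1683 lower. The wildtype and mutant arrays did not overlap for 27.2% of the 8194 genes. The 3′ minus 5′ signal of 3 control transcripts (actin, Gapdh and eIF4A), a measure of RNA integrity, also differed between groups. It averaged 1.67 in wildtype (1.46 to 1.92), against 1.64 in HP1a mutants, 1.505 in the double mutants, 1.25 in the Setdb1 group and 1.32 in the Su(var)3-9 group. Its part in the differences was not tested. Of the 280 genes of high signal, 141 were higher in wildtype and 39 lower, beside 44% and 24.3% of all tested genes. Their choice by wildtype signal favours a higher wildtype value, so these counts do not test whether bright genes differ.

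Digestive proteases were higher in wildtype. Of 23 tested, 22 were higher than the mutant groups and 1 lower, beside 44% and 24.3% of all tested genes. These counts were the same after centring or quantile normalization. The median difference was 0.96, beside 0.10 over all genes. The protease medians were 1.34 against HP1a mutants, 1.59 against the double mutants, 0.77 against the Setdb1 group and 0.95 against the Su(var)3-9 group. The trypsin gene kappaTry had 9.94 to 10.34 on the wildtype arrays and 7.35 to 9.28 on the mutant arrays, and the difference was 2.24 ± 0.0927 (SE; limma, adjusted p = 1.37e-11). Jon74E had 12.56 to 13.002 on the wildtype arrays, against 10.28 to 12.01 on the mutant arrays. The exception was betaTry, whose difference was −1.41 and which was named after its value was seen.

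Other genes of the gut and of detoxification were more often higher than lower in wildtype. Of 61 tested cytochrome P450 genes 43 were higher in wildtype and 13 lower, of 31 glutathione transferases 25 and 3, and of 15 carbohydrases 11 and 2. The carbohydrases had median differences of 1.04 from HP1a mutants, 0.86 from the double mutants and 0.38 from the Su(var)3-9 group, but −0.04 from the Setdb1 group. The P450 medians lay between 0.37 and 0.85 and those of the transferases between 0.49 and 0.63. The largest difference in the bright class was that of CG3819, with 13.27 to 13.56 on the wildtype arrays against 9.48 to 11.62 on the mutant arrays. It was 2.68 ± 0.151 higher (SE, limma adjusted p = 3.76e-10). This p-value does not allow for the choice of the gene by its wildtype signal and its difference. PGRP-SC2, an enzyme that degrades bacterial peptidoglycan in the gut, had 12.49 to 12.70 on the wildtype arrays, against 9.02 to 11.83 on the mutant arrays. CG12057 was higher by 2.24, Cht9, a chitinase-like gene, by 2.14, and CG8160 by 1.97. For CG8160 the Setdb1 mutants averaged 7.10 and the other 3 groups 10.73 to 11.93, so most of that difference came from 1 group.

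Cuticle genes ran the other way. Of 23 tested Tweedle genes 0 were higher in wildtype and 21 lower, of 49 Cpr genes 8 and 36, and of 13 genes of the Lcp, Acp65A and Ccp84A group 0 and 12. Over all tested genes 44% were higher and 24.3% lower. The median differences of these cuticle lists were −2.18, −1.61 and −2.20. Some members passed the filter on low signal only through mutant arrays, where they were high. Over the members that reached 6 on at least 3 wildtype arrays, the counts were 0 higher and 20 lower of 22 Tweedle genes, 8 and 30 of 41 Cpr genes, and 0 and 10 of 10 of the Lcp group. Of all 7758 genes that did so, 3599 were higher and 1683 lower. Chitin metabolism (5 higher and 19 lower of 28) and the Osiris family (1 and 8 of 14) had the same sign. Over members that reached 6 on at least 3 wildtype arrays, these counts were 5 and 19 of 28 and 1 and 8 of 13. The gene y, which acts in cuticle pigmentation, had 6.47 to 7.68 on the wildtype arrays, against 9.01 to 10.98 on the mutant arrays. Cpr47Eb and Cpr49Ag, the brightest Cpr genes of wildtype, were among the 8 that were higher, by 1.17 and 0.74.

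**Figure D2:**
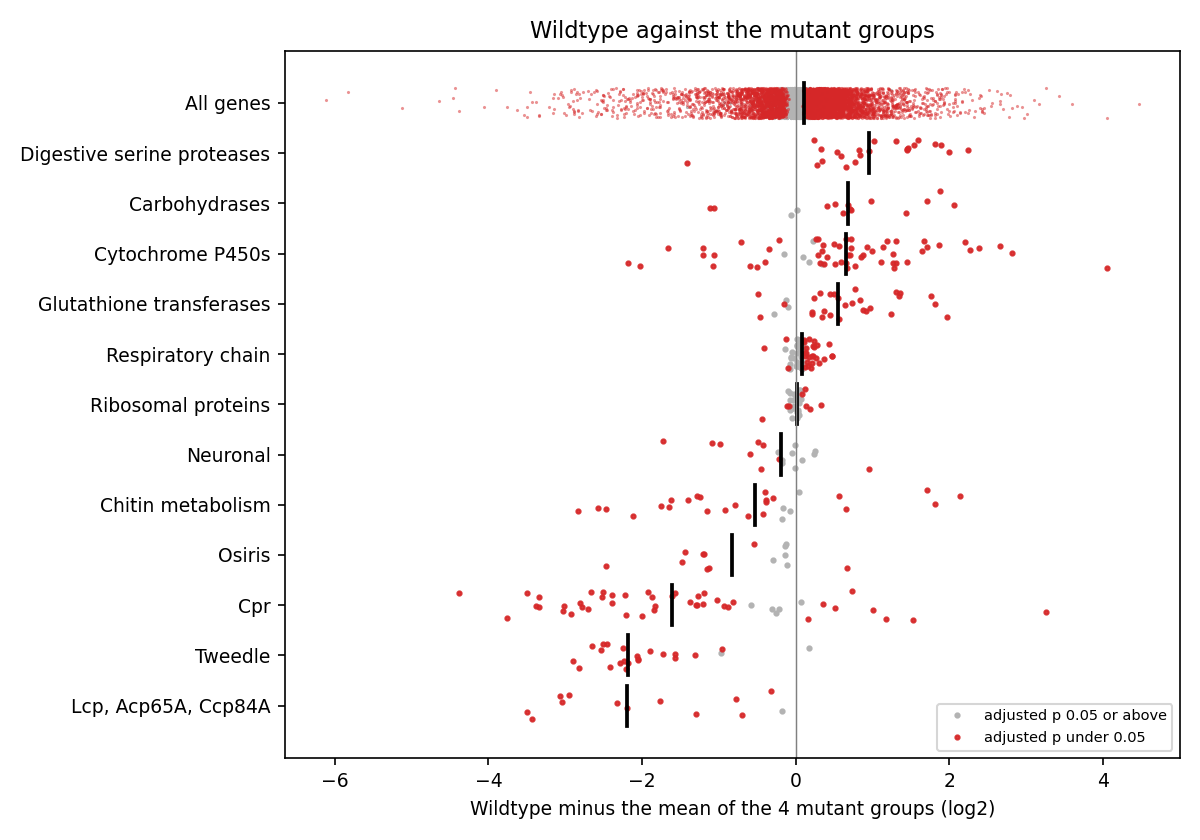
Wildtype minus the mean of the 4 mutant groups (log2) for the 8194 tested genes and for 12 lists. Red points had a limma adjusted p under 0.05, and black bars are medians. Digestive proteases lie right of zero with 1 exception, and the 3 cuticle lists at the bottom lie mostly left of it.

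Wildtype arrays differed little from one another. Over the 7758 genes that reached 6 on at least 3 wildtype arrays, the SD over the 6 arrays had a median of 0.0976, and 4023 genes (51.9%) had an SD under 0.1. Within sets of 3 arrays the median SD was 0.0856 for D to F and 0.082 for A to C, against 0.108 to 0.189 in the 4 mutant groups. An SD of 0.5 or more was reached by 108 genes over D to F and 82 over A to C, against 367 to 452 in the mutant groups. Ribosomal proteins, at the top of the scale with a median signal of 13.91, had a median SD of 0.0223, respiratory chain genes 0.0392, and mitochondrial ribosomal proteins 0.0488. Digestive proteases, with 0.0943, lay near the median of all genes.

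The genes with a large spread formed a narrow group. An SD of 0.5 or more over the 6 arrays was found for 97 genes (1.25%), and an SD of 1 or more for 19. Of the 73 cuticle genes that passed the filter on low signal, 31 were among the 97: 14 of 22 Tweedle genes (63.6%), 13 of 41 Cpr genes (31.7%) and 4 of 10 of the Lcp group (40%). The other cuticle genes among the 105 measured did not pass that filter. Of the other 66, 60 belonged to no list, and the remainder were 3 salivary glue-related genes, an odorant-binding protein, an Osiris gene and an actin gene. Leaving out array D gave 89 such genes, 29 of them cuticle genes, and leaving out array E gave 84, with 28 cuticle genes, the filter being applied anew each time.

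**Figure D3:**
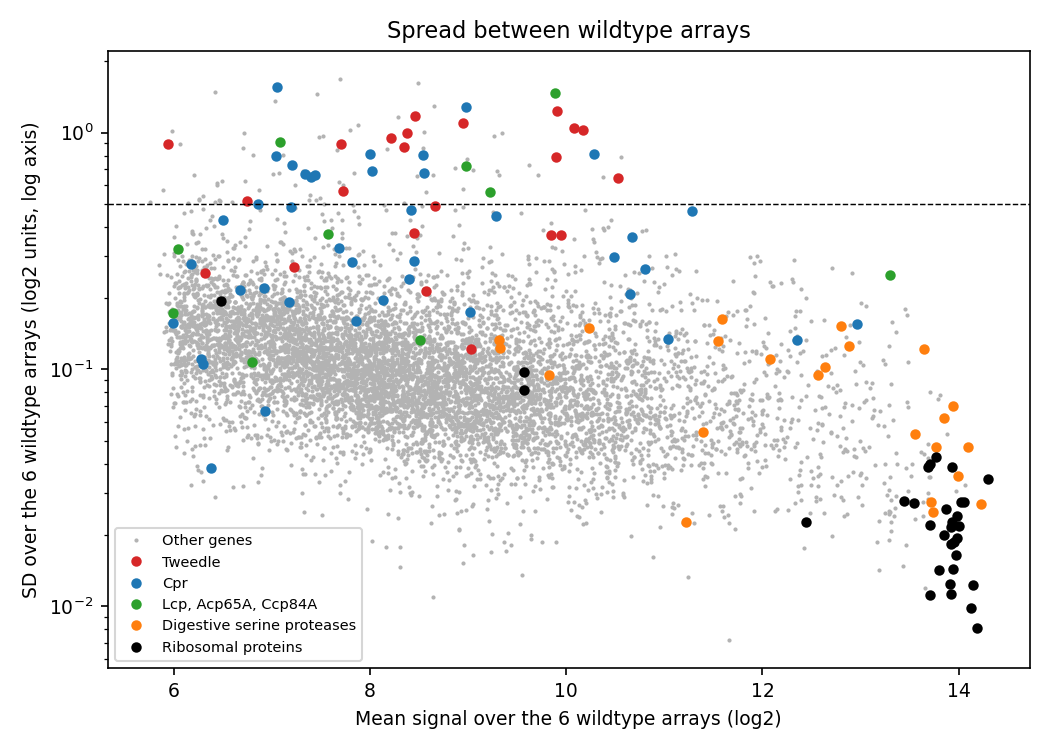
SD over the 6 wildtype arrays (log axis) against mean signal for 7758 genes. Colours mark lists, and the dashed line is an SD of 0.5. Cuticle genes make up 31 of the 97 genes on or above the line, and ribosomal proteins cluster at the lower right.

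CG17290 varied most, with 7.42, 7.70, 8.82, 4.58, 9.39 and 8.25 on arrays A to F, an SD of 1.69. Array D stood far below the rest and array E highest. Lcp65Af, a larval cuticle protein, had 9.02, 9.72, 10.98, 7.52, 11.50 and 10.62, and again D was lowest and E highest. TwdlB had 9.503, 9.75, 10.85, 7.71, 11.04 and 10.57, in the same order of D, A, B, F, C and E. Cpr67Fb, with an SD of 1.55, had 4.97 on array D and between 6.02 and 8.64 on the others, highest on F.

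Most of the other genes among the 20 with the largest SD belonged to no list. CG34273 (SD 1.62), CG13679 (1.46) and CG14568 (1.36) were lowest on array B, closely followed by D, and highest on E. CG14324 (1.48), CG15212 (1.30), CG32266 (1.16), CG32237 (1.07), CG14569 (1.03) and CG13445 (1.00) were lowest on D and highest on E. So were TwdlL (1.05) and TwdlM (1.02). CG43117 (1.02) was lowest on A, with 4.87, and highest on E, with 7.47. CG14147 (1.00) was lowest on A, with 7.4004, and highest on F, with 9.88.

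This array pattern recurred across the most variable genes. Of the 100 genes with the largest SD, 38 were highest on E and lowest on D, an order that 2.67% of all 7758 genes had, and 7 showed the opposite order, which 2.31% had. Array E was the highest in 55 of the 100 and array D the lowest in 47. The 2 orders and the set of 100 were chosen after these values were seen, and genes of 1 family on 1 array are not independent. On the first principal component of the 7758 genes, which held 36.5% of the variance between arrays, D and E were the 2 ends. Its values were not scaled by gene, so genes with a large SD weigh most in it. It is therefore not separate support for this order.

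A smaller set of cuticle genes followed a second order, with A and B low. Cpr65Ea had 8.99, 10.16 and 9.93 on arrays D to F and 7.18, 7.65 and 9.98 on arrays A to C, so that C resembled D to F. TwdlD had 8.23, 9.66 and 9.42 on D to F and 6.98, 7.18 and 9.30 on A to C. TwdlH and Cpr51A were also lowest on A and highest on E.

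Some Tweedle genes opposed the first order. TwdlQ had 7.54, 7.88, 7.02, 8.99, 6.4997 and 8.31 on arrays A to F, highest on D and lowest on E. TwdlF had 9.68, 10.20, 9.40, 10.92, 8.72 and 10.46, with the same extremes, and CG2961, of no list, had 8.71, 8.75, 7.86, 9.67, 7.25 and 9.00. These 3 were named after their values were seen. The Tweedle family thus held genes of 3 different array orders.

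Glue-related genes had an order of their own. The genes ng1, ng2 and ng3, new-glue genes of the salivary gland that lie next to each other on the X chromosome, were highest on array B, with 7.96, 7.42 and 7.90. On the other 5 arrays ng3 lay between 6.30 and 6.97. In the Su(var)3-9 group they averaged 12.12, 12.06 and 12.76, and in HP1a mutants 9.86, 9.08 and 9.07. In the double mutants they averaged 7.87, 6.84 and 7.31, and in the Setdb1 group 7.21, 6.99 and 6.98. Obp56d and Act88F, outside the cuticle and salivary lists, also had an SD of 0.5 or more. Obp56d, an odorant-binding protein gene, had 10.48 on E and 8.54 on D, and Act88F, the actin of flight muscle, had 7.25 on B and 7.18 on F and 6.14 to 6.63 elsewhere.

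**Figure D4:**
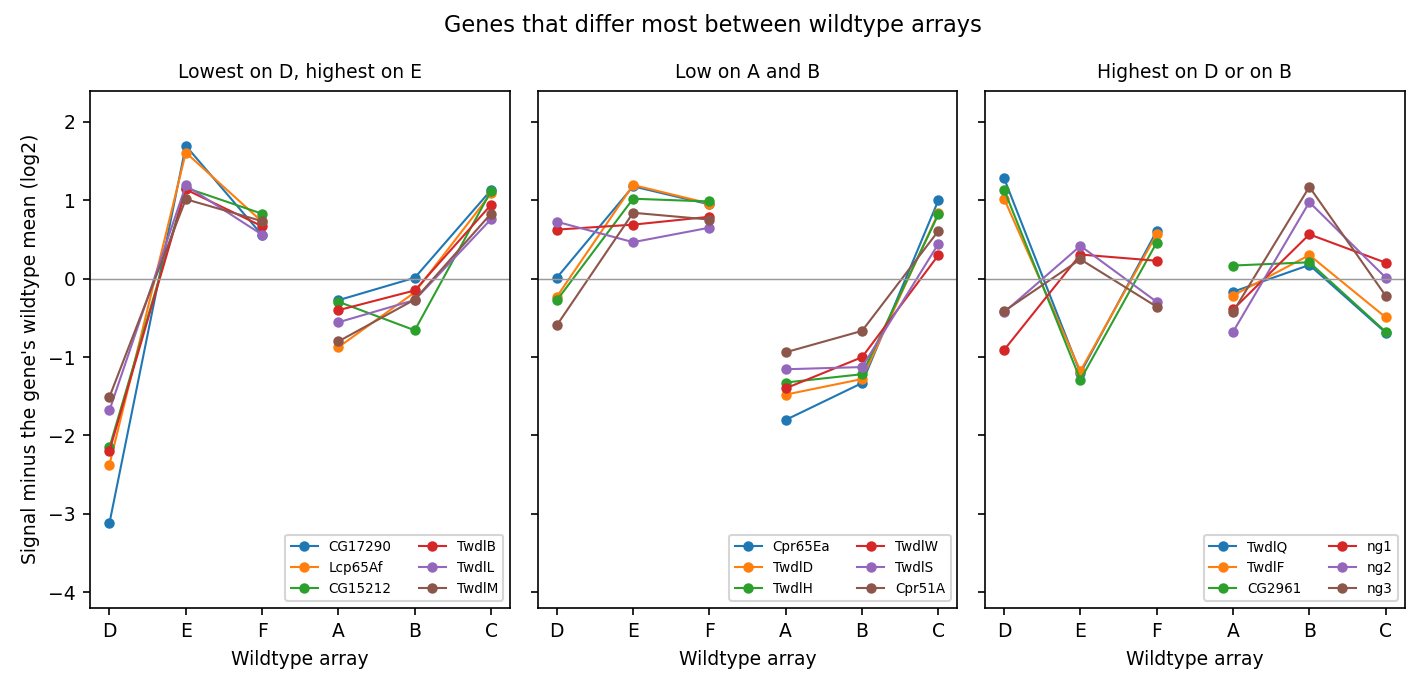
Signal minus the gene's own wildtype mean (log2) on each of the 6 wildtype arrays, D to F left and A to C right, for 18 of the genes described. Lines only join values of 1 gene. CG17290, Lcp65Af and 4 others fall on D and peak on E, the middle genes are low on A and B, and TwdlQ, TwdlF and CG2961 peak on D.

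The most variable genes lay together in the genome more often than others. Of the 100 genes with the largest SD, 38 (38%) had another of the 100 as the nearest neighbour on either side among the 7758 genes, against 1.87% of the other 7658 genes. The longest run was TwdlK, TwdlN, TwdlH, TwdlS, TwdlD, Tb and TwdlQ on arm 3R, followed by CG14570, CG14569, CG14568 and CG14573 on 3L and the 4 ng genes on X. The variable genes were also short: 61 of the 97 with an SD of 0.5 or more lay in the fifth of genes of shortest genomic span, 5.25% of the tested genes there against 1.25% of all. Of the 65 measured genes of chromosome 4, 51 (78.5%) reached 6 on 3 arrays, against 65.2% of all genes. None of these 51 was among the 97, but they are too few to tell this from the 1.25% of all. Their median SD was 0.124, against 0.0976 over all genes.

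The genes that varied most between wildtype arrays were also lower in wildtype than in the mutants. Of the 100, 91 were lower and 4 higher in the limma test, with a median difference of −2.24. Among the 7758 genes from which they were drawn, 1683 were lower and 3599 higher. For 50 of the 100 the 6 wildtype arrays and the 12 mutant arrays did not overlap, against 27.2% of all 8194 tested genes. These 8194 also hold genes outside the 7758, and the share over the 7758 alone is not given. Lcp65Ac had 8.39 to 10.14 on the wildtype arrays, against 11.19 to 13.15 on the mutant arrays, and even its highest wildtype value, on E, stayed below the lowest mutant value. Without array D or without array E, with the 100 genes chosen anew, the count of lower genes was 87 and 86.

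Outside the cuticle, lists of genes moved between wildtype arrays by small amounts. The deviation of a list is the mean, over its members that passed the filter, of the signal on an array minus the gene's wildtype mean. The cell cycle list deviated by 0.20 on array A and by −0.17 on F, and all 12 members were higher on A than on F, an order that 64.3% of all genes had. CycB, the mitotic cyclin B, had 7.82 on A and 6.67 to 7.27 on the other arrays. Neuronal genes deviated by 0.17 on A and −0.08 on F, and elav, a neuron-specific RNA-binding protein gene, had 9.44 on A and 9.11 to 9.24 elsewhere and was named after its values were seen. Digestive proteases deviated by −0.08 on A and 0.09 on F, and 2 of 23 were higher on A than on F.

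The order of arrays A and F depends partly on the scale of the arrays. Array A was the highest of the 6 in 28.5% of genes and F the lowest in 34.9%. With each array centred on its median, A was the highest in 13.3% and the lowest in 36.9%. After centring, the cell cycle list still deviated by 0.13 on A and −0.12 on F, with all 12 members higher on A, against 39.4% of all genes. Digestive proteases deviated by −0.15 on A and 0.14 on F, and 0 of 23 were higher on A. The 3′ minus 5′ signal of the control transcripts was 1.92 on A, 1.74 on B, 1.69 on C, 1.46 on D, and 1.62 on E and F. A and D, the extremes of this measure, are also extremes of the patterns above. The opposite extremes of those patterns, F and E, lay between A and D in this measure. The part of this measure in the patterns was not tested.

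**Figure D5:**
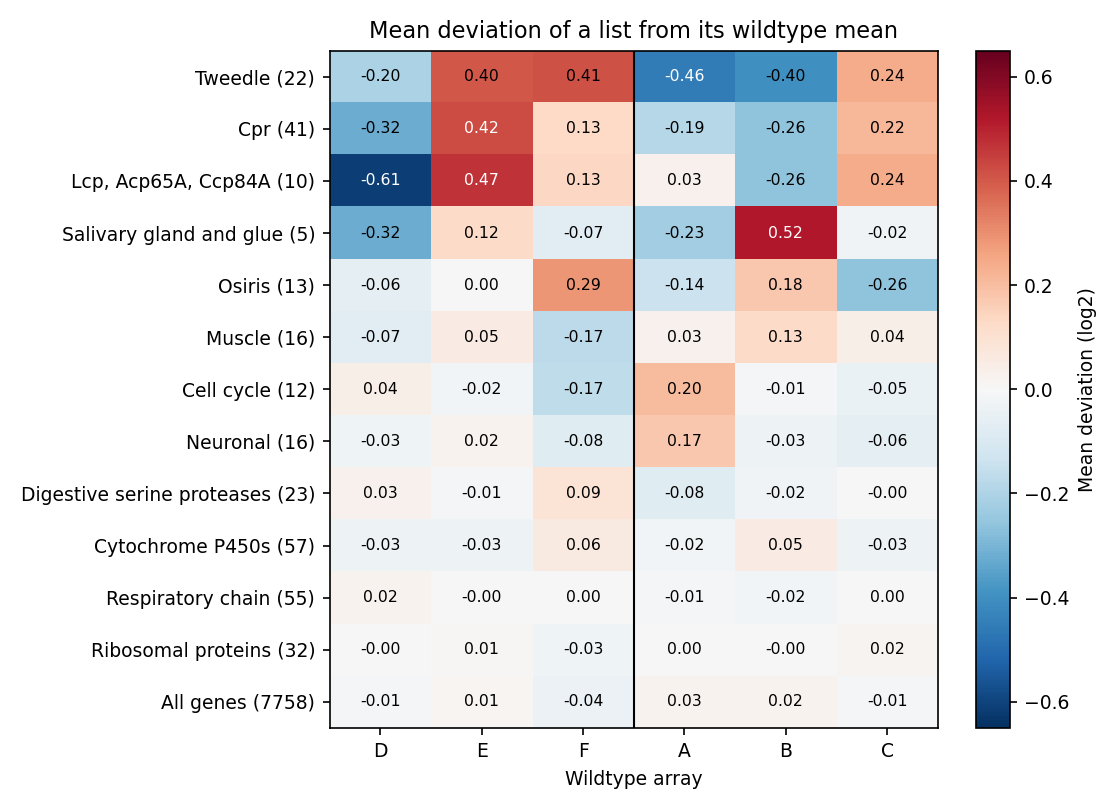
Mean deviation (log2) of the members of a list from their own wildtype means on each wildtype array, D to F left and A to C right, with the number of members in parentheses. All 3 cuticle lists lie below 0 on B and D and above 0 on C, E and F, the salivary list is high on B, and ribosomal proteins stay near 0.

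No gene passed the test between arrays D to F and arrays A to C. With limma on the 6 arrays, 0 of 7758 genes (0%) had an adjusted p under 0.05. At an unadjusted p under 0.05 there were 616 genes (7.94%), and for 1000 genes (12.9%) the 3 arrays of each set did not overlap. The lowest adjusted p was that of escl, the gene of a Polycomb group protein related to esc, with 5.87, 6.03 and 6.05 on D to F and 6.82, 6.73 and 6.71 on A to C. The sets did not overlap, the difference was −0.77 ± 0.0695 (SE), and the adjusted p was 0.0681 by limma. Quantile normalization, array weights and the robust variance prior each brought escl below the threshold, at 0.0433, 0.0455 and 0.0434. With a variance trend on the mean it was 0.243, with 1 array left out it ran from 0.128 to 0.528, and with all 18 arrays in 1 model it was 0.9999.

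The largest differences between the sets were again in cuticle genes. Cpr65Ea was 1.42 ± 0.701 higher in D to F (SE; limma, adjusted p = 0.643), and TwdlD was 1.28 higher (adjusted p = 0.65). TwdlW had 8.84, 8.90 and 9.00 on D to F and 6.81, 7.21 and 8.51 on A to C, a difference of 1.40 ± 0.387 with a limma adjusted p of 0.624. TwdlS had 6.67, 6.41 and 6.60 on D to F and 4.79, 4.82 and 6.39 on A to C. In both genes array C lay near D to F, and without array C the limma adjusted p was 0.0125 for TwdlW and 0.00599 for TwdlS. Without any 1 of the other 5 arrays it lay between 0.312 and 0.985 for TwdlW and between 0.340 and 0.985 for TwdlS, and with all 18 arrays in 1 model it was 0.9999 for both. The largest negative difference was that of CG13325, with 5.49, 5.86 and 6.36 on D to F and 6.70, 6.96 and 6.44 on A to C, whose adjusted p was 0.624. Within the 100 most variable genes the sets of arrays did not overlap in 5, beside 12.9% of all genes.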

How the data were processed

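The authors deposited log2 signals of 18952 probe sets on each of 18 arrays, made with RMA per the submitters' processing notes. No source used here gives the RMA version, the probe set definition or the genome build. Total RNA was isolated with TRIzol and RNeasy, per the labels' protocols. The platform annotation gave 13646 probe sets 1 gene, 402 several and 4721 no name, and 183 were controls. Names were updated through RefSeq genes of Release 6, which matched 13543 probe sets and gave 11893 genes. A gene with several probe sets took the one with the highest mean over all arrays.

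Differences were tested with limma 3.58.1 in R 4.3.3 (lmFit, eBayes, Benjamini-Hochberg), on genes reaching log2 6 on at least 3 of the arrays compared. D to F minus A to C used the 6 wildtype arrays with 4 residual degrees of freedom. Wildtype minus the mean of the 4 mutant group means used all 18 arrays with 13. The spread was the SD over the 6 arrays. The fits were checked on simulated data. The number of arrays limits the precision.

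Genes were named by rule: the brightest, the most variable, the brightest and most variable members of each list, those with the largest differences, and exceptions said to be chosen after their values were seen. The lists and rules were chosen with earlier results of these data known, and the SD class of 0.5, the signal class under 5, the 100 most variable genes, the array orders and the breakdowns by neighbour and length were chosen after the values were seen.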

Additional observations from a re-analysis of the deposited data

Results flagged for a closer look

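For 6 of the 102 named genes checked, 1 wildtype array lay far from the other 5, its gap to the nearest of them exceeding Dixon's critical value. Chance flags about 1 in 20 groups of values, and over all 7758 genes 493 (6.35%) were flagged. Array F was high for DptB, an antimicrobial peptide gene, with 9.34 against 8.27 to 8.53 on the others. It was also high for Cht9, with 12.78 against 12.60 to 12.65, and for epsilonTry, with 13.86 against 13.73 to 13.77. Array A was low for CG3819, with 13.27 against 13.47 to 13.56, and for kappaTry, with 9.94 against 10.26 to 10.34. Array A was high for Gad1, with 10.40 against 10.17 to 10.25.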

How the results depend on the processing

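Between D to F and A to C, the count of called genes was 0 to 2 over all alternatives: 1 with quantile normalization, 1 with array weights, 1 with a robust variance prior, 0 to 2 when leaving out 1 wildtype array, and 0 with all 18 arrays in 1 model. Against the mutants, the count of 5591 ran from 5311 to 5395 when leaving out a wildtype array, from 5475 to 5726 when leaving out a mutant array, was 3805 with a filter at log2 8 and 7119 with none, and was 4574 with wildtype A to C alone and 4538 with D to F alone. With the replicate letter as a replicate block it was 4945 (3362 higher, 1583 lower). Over the 7758 genes reaching 6 on at least 3 wildtype arrays, a filter chosen after seeing the data, 3599 were higher in wildtype and 1683 lower. The labels do not say that a letter pairs arrays. Same-letter correlations of deviations were positive in all 12 pairs of a wildtype and a mutant array (0.079 to 0.455) and above 0.1 in 11. Of the 12 mutant arrays, 11 correlated best with the wildtype array of their own letter. The exception was double mutant A. Each wildtype array enters several pairs, so the pairs are not independent. Whether arrays of 1 letter share an effect was not tested. The letter was left out of the main test because the labels state no pairing. The p-values against the mutants therefore do not allow for any effect shared by arrays of 1 letter. The low class held 0 genes at log2 3.5, 2219 at 5, 3877 at 6 and 5166 under the 95th percentile of the yolk, eggshell and seminal fluid genes, and 185 to 193 without 1 array. The high class held 630 genes at 11, 108 at 13, and 280 to 289 without 1 array. The median SD was 0.0815 with a filter at log2 8, 0.105 with none, 0.095 with the mean of probe sets, and 0.088 to 0.101 without 1 array. After centring, the differences of RpS18 (−0.0144) and RpS27A (−0.0961) from the mutants had the opposite sign. The counts without arrays D or E were chosen after seeing the data, and without both 70 genes had an SD of 0.5 or more, 22 of them cuticle genes. The table holds no detection calls, so differences between dim probe sets have no known bound.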

Other observations

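CG42816 was the only gene under 5 on all 6 wildtype arrays and at 7 or more on all 12 mutant arrays. It had 4.08 to 4.61 on the wildtype arrays and 9.22 to 11.48 on the mutant arrays. No gene showed the reverse, with 7 or more on every wildtype array and under 5 on every mutant array. The gene was singled out by these values, so no test is given.

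Unnamed probe sets were a large part of the brightest signals. Of the 100 brightest probe sets other than controls, 49 named 1 gene, 2 named several and 49 named none in the annotation used. Of the 4721 unnamed probe sets, 96 reached 12 on all 6 wildtype arrays and 2740 stayed under 5. Of the 876 that reached 6 on at least 3 wildtype arrays, 5 had an SD of 0.5 or more.

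A further probe set was measured for 4 of the 100 most variable genes, and it reached 6 on at least 3 arrays in 2 of them. In Vajk4 the further probe set had an SD of 0.73 and was highest on F and lowest on A, as the first one was. In CG32694 it had an SD of 0.57 but was highest on C and lowest on A, where the first one was highest on F and lowest on B.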
